A study of Homo sapiens with 12 samples.

Results

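The miR-29 family was followed through 12 small RNA libraries of HCT116 cells, a human colorectal carcinoma line, in which DICER was supplied as a rescue. The 7 mature strands named miR-29a, miR-29b or miR-29c were taken by exact name from the deposited count tables, which list 1346 miRNA entries, and all 7 passed the filter on low counts that left 374 entries for testing. The rescue proteins, with 2 libraries each, were wild-type DICER (WT), the exchanges R821E and R821A, ΔPAZ helix, and proteins labelled E5 and A5. In R821E and R821A the labels' notation replaces an arginine by glutamate or by alanine, while no source used here says what E5 and A5 stand for, which DICER background was rescued, or whether a line was a single clone. All groups share the cell line and the library protocol, AQ-seq, a small RNA method designed to reduce ligation bias. The labels name no separate cultures behind the 2 libraries of a group, and p-values then measure only a spread between libraries that may be technical.

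DICER cuts the loop from a precursor hairpin and leaves a duplex of a 5p and a 3p strand, of which an Argonaute protein usually keeps a single strand as the guide. The guide pairs with target mRNAs mainly through its seed, bases 2 to 8. In the miR-29 family the 3p strands are the familiar guides, known for repressing collagens and other extracellular matrix genes, the DNA methyltransferases DNMT3A and DNMT3B, and the survival factor MCL1. The 5p strands are usually described as passengers.

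The 7 mature strands are shown because their names hide which of them share a seed. They are taken from RefSeq (GRCh38.p14), written 5′ to 3′, with the seed in capitals, and the prefix hsa (Homo sapiens) is dropped after this.
hsa-miR-29a-3p: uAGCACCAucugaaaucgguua
hsa-miR-29b-3p: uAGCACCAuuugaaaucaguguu
hsa-miR-29c-3p: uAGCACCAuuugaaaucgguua
hsa-miR-29a-5p: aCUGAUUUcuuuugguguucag
hsa-miR-29b-1-5p: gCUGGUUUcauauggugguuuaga
hsa-miR-29b-2-5p: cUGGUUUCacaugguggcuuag
hsa-miR-29c-5p: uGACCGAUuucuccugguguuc

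The 3p strands carry the same seed, AGCACCA, which 3 human mature strands in the RefSeq table hold, all of this family. Counted from 1 at the 5′ end, miR-29a-3p and miR-29c-3p differ by a single substitution, C10U, of 22 bases. The strands miR-29c-3p and miR-29b-3p differ at 3 of 22 compared positions by G18A, U21G and A22U. The 5p strands have 4 different seeds, each held by 1 RefSeq strand. The seeds of miR-29b-1-5p and miR-29b-2-5p look offset because these strands share a run of 9 bases that starts at position 2 of the former and position 1 of the latter. Each 3p strand begins with U, as do 37.8% of the 463 deposited 3p entries that could be matched by name. No source used here says how reads fitting both miR-29a-3p and miR-29c-3p were counted, so miR-29c-3p, the rarer of the pair, is uncertain.

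The strands come from 4 hairpins in pairs on chromosomes 7 and 1, all on the minus strand. MIR29A lies at chr7:130876747-130876810 and MIR29B1 at chr7:130877459-130877539, with 648 bases between them. In GENCODE v29 both overlap an exon of the long non-coding RNA LINC-PINT and introns of the lincRNA AC016831.6, with LINC00513 on the opposite strand. MIR29C lies at chr1:207801852-207801939 and MIR29B2 at chr1:207802443-207802523, with 503 bases between them, and both overlap an exon of the host transcript MIR29B2CHG. The hairpins MIR29B1 and MIR29B2 yield an identical 3p strand, so the single entry miR-29b-3p sums both, while their 5p strands are listed apart. The hairpins whose arms can be compared within a locus are shown with the mature strands in capitals and the loop between them, 16 bases in each, in lower case.
MIR29A: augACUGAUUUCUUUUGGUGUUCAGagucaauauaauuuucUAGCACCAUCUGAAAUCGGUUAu
MIR29C: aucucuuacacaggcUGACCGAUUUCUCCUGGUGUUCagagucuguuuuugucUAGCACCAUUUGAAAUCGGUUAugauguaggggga

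Libraries held 144067 to 255296 miRNA counts, so that 3 counts equal 11.8 to 20.8 CPM (counts scaled to library size). The 30 spike-in entries took 3.71 to 6.96% of counts. The number of miRNA counts per spike-in count was 24.2 ± 2.49 (SD, n = 2) in WT and 14.3 ± 1.38 in R821E, with the other groups between. A pair of scales is therefore used. CPM with TMM factors sets a strand against the other miRNAs, and counts per 1000 spike-in counts set it against the added RNAs. Of 8 miRNAs of colorectal epithelium, 7 were detected in every library, and miR-215-5p had 0 to 2 counts. Of the 7, miR-141-3p had only 2 to 10 counts and miR-200c-3p 1 to 15. Their summed level, scaled to total counts, was 942 to 1076 CPM in R821E and 2160 to 2967 CPM elsewhere, and 5 of the 8 are 3p guides that are also on the list of such guides used below. Of 17 miRNAs of other cell types, 15 were in the files and none of these was at 0 in every library. Their sum was 1553 to 1832 CPM in R821E and 1836 to 2540 CPM in the other groups, with the neuronal miR-9-5p detected in each library, miR-124-3p and miR-133a-3p at no more than 1 count, and miR-122-5p and miR-223-3p at no more than 2. These marker levels moved with the R821E results below, and their part in them was not tested.

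In WT cells the family took 3.12% ± 0.423 of miRNA counts (SD, n = 2) and was led by its 3p strands. On the CPM scale miR-29b-3p stood at 9932 ± 4448 and miR-29a-3p at 9912 ± 989, levels that could not be ordered because the libraries overlap. They were followed by miR-29a-5p at 5112 ± 575 and miR-29b-1-5p at 2957 ± 429.4. Both miR-29c strands were rare, miR-29c-3p at 311 ± 76.98 and miR-29c-5p at 194.2 ± 25.6, and miR-29b-2-5p was at 43.7 ± 2.21. In R821E the order was different. There miR-29a-5p led at 12223 ± 1139 CPM, and miR-29b-1-5p at 6440.4 ± 317 overlapped miR-29b-3p at 6039 ± 633. The strand miR-29a-3p followed at 5219.6 ± 309, below both miR-29b-3p libraries. For miR-29c the 5p strand at 424 ± 146 was above the 3p strand at 158 ± 88.5 in both libraries, and miR-29b-2-5p stayed lowest at 56.7 ± 6.52. Among all miRNA entries ordered by count, miR-29a-5p moved from ranks 33 and 31 in the WT libraries to ranks 11 and 14 in R821E, and miR-29a-3p from ranks 12 and 10 to ranks 29 and 31.

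**Figure D1:**
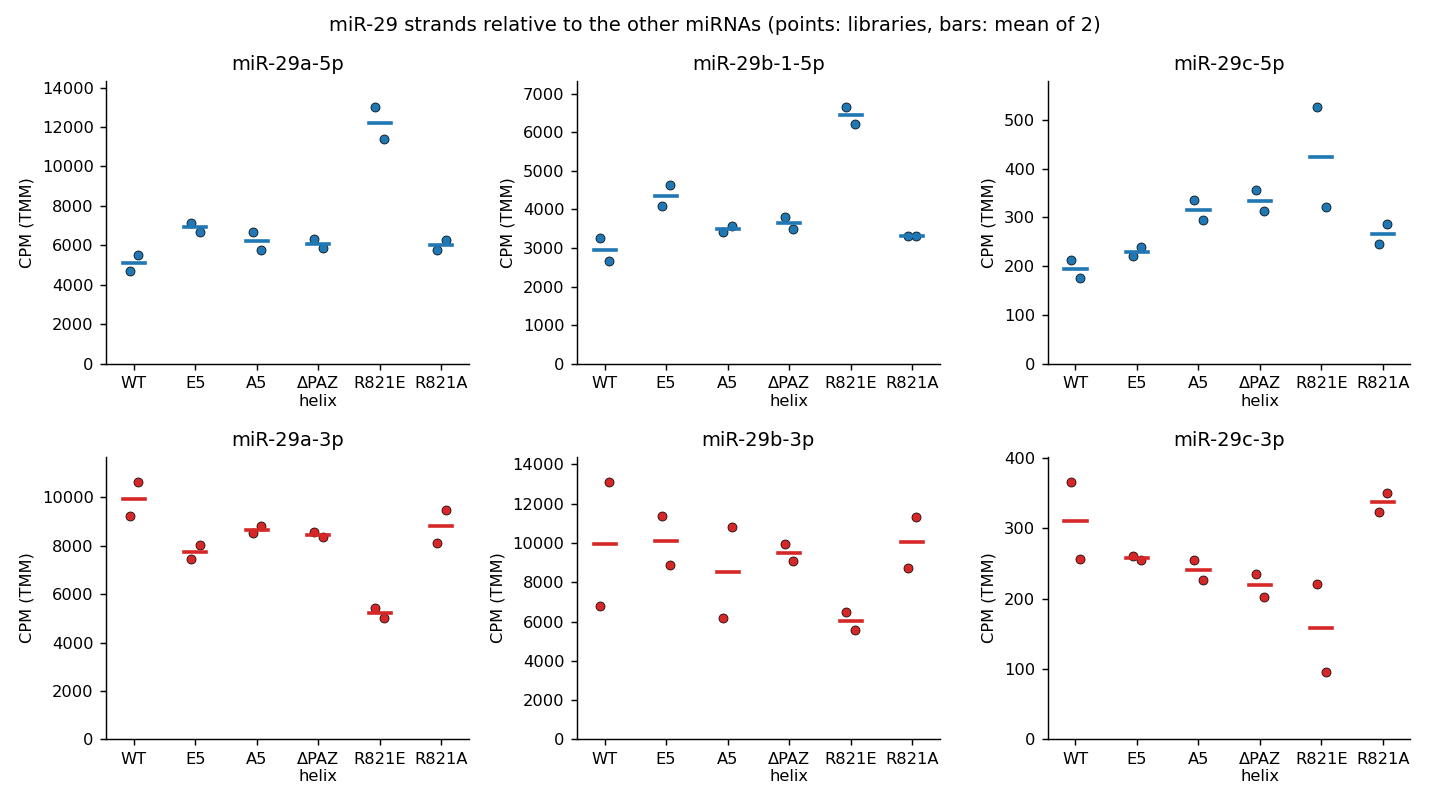
Level of 6 miR-29 strands in CPM with TMM factors (y axis, from 0) by DICER group (x axis), with points for libraries and bars for the mean of 2. In R821E miR-29a-5p is at 13028 and 11417 CPM, above every other library, while miR-29a-3p is at 5438 and 5001 CPM, below every other library; on the spike-in scale the 5p strand does not stand apart.

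R821E was the group with the most miR-29 calls and also with the most calls over all tested entries. Of these, 47.9% were called against WT in CPM and 60.7% on the spike-in scale. Against the spike-ins the 3p guides fell by 4.08-fold to 4.68-fold, and no 5p strand was called. Seen against the other miRNAs, the same libraries show 5p strands that rose and 3p strands that fell.

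The guide miR-29a-3p had 237 and 291 counts per 1000 spike-in counts in the WT libraries and 59.3 and 53.4 in R821E. The R821E libraries were the lowest of the 12 for this strand, with no overlap. It fell by 2.23 on the log2 scale (SE 0.176, edgeR adjusted p = 2.58e-07), which is 4.68-fold lower. Beside it, miR-29b-3p had 174 and 358 counts per 1000 spike-in counts in WT and 70.7 and 59.7 in R821E. The WT libraries of this strand lay far apart, yet both were above both R821E libraries. Its fall was 4.08-fold (log2 change -2.03, SE 0.378, edgeR adjusted p = 8.73e-04). The rare guide miR-29c-3p had 9.39 and 7.03 counts per 1000 spike-in counts in WT and 2.40 and 1.02 in R821E, the last from 11 raw counts. It was 4.62-fold lower (log2 change -2.21, SE 0.336, edgeR adjusted p = 6.37e-05). In bulk RNA, fewer cells that hold a strand and less of it per cell cannot be told apart.

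The 5p strands of the same hairpins behaved otherwise on this scale. The strand miR-29a-5p had 121 and 151 counts per 1000 spike-in counts in WT and 141.96 and 121.996 in R821E, and the groups overlap. Its log2 change was -0.04, with a 95% interval from -0.41 to 0.33 (edgeR adjusted p = 0.860). For miR-29b-1-5p the values were 83.8 and 72.7 in WT and 72.6 and 66.4 in R821E. These libraries nearly touch, and the log2 change was -0.17 with an interval from -0.51 to 0.17. The values of miR-29c-5p, 5.45 and 4.83 in WT and 5.75 and 3.43 in R821E, overlap, with a log2 change of -0.15 and an interval from -0.76 to 0.46. The least abundant strand, miR-29b-2-5p, had 13 and 11 raw counts in WT and 10 and 6 in R821E, too few to place it (log2 change -0.89, edgeR adjusted p = 0.229).

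Relative to the spike-ins 3 of the 7 strands were called, all lower and all 3p, beside 60.7% of tested entries called in this comparison and 60.4% called lower. The libraries of WT and R821E did not overlap in 5 of the 7 strands, beside 75.4% of tested entries. Of the 3p entries alone, 69.6% were called lower, and of the 5p entries 60.9%. The fall of the guides was thus shared by many entries: the median log2 change on this scale was -1.38 over all entries, -1.88 over 3p entries and -1.12 over 5p entries. The median of the miR-29 3p strands was -2.21 and that of the 5p strands -0.16. The 3 calls held without each of the 4 libraries in turn.

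**Figure D2:**
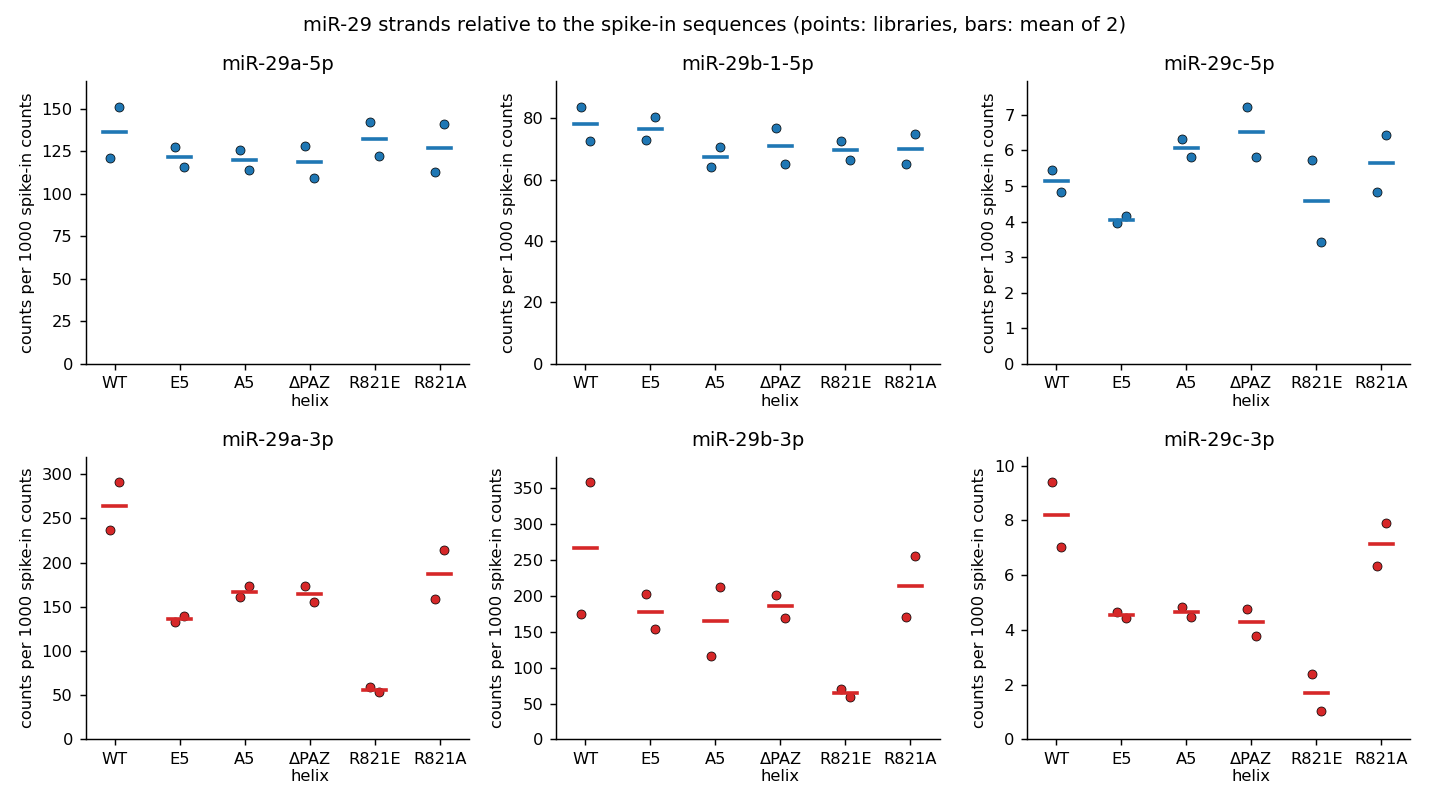
Counts of 6 miR-29 strands per 1000 spike-in counts (y axis, from 0, a separate range for each strand) by DICER group (x axis), with points for libraries and bars for the mean of 2. The 5p strands in the upper row overlap WT in R821E or nearly so, and the 3p strands in the lower row are lowest in R821E, with miR-29a-3p at 59.3 and 53.4 against 237 and 291 in WT.

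Summed over the family, the 5p strands gave 182 to 230 counts per 1000 spike-in counts over all 12 libraries, a range that holds every group. The mean was 220.6 ± 13.2 in WT (SD, n = 2) and 207 ± 20.2 in R821E. The 3p strands gave 420 and 656 in the WT libraries and 132 and 114 in R821E. Elsewhere the lowest 3p sum was 282. The 5p share of the family's counts was 29.7% ± 5.30 in WT and 62.6% ± 0.147 in R821E. The other entries with an arm in their name also held a larger 5p share in R821E, 88.3% ± 0.797 against 73.9% ± 2.22. The abundant oncogenic 5p guide miR-21-5p went from a mean of 368995 CPM in WT to 745456 in R821E. These CPM are not shares of counts, because TMM factors of 1.15 and 1.06 lower them in WT. Factors of 0.713 and 0.802 raise them in R821E.

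Set against the other miRNAs, miR-29a-5p was at 4705 and 5518 CPM in WT and at 13028 and 11417 in R821E. Its rise of 1.26 on the log2 scale (SE 0.139, edgeR adjusted p = 1.63e-05) is a 2.39-fold change in CPM and was not called on the spike-in scale, where the estimate is -0.04. The strand miR-29b-1-5p was at 3261 and 2654 CPM in WT and at 6664 and 6217 in R821E. It rose by 1.12 (SE 0.140, edgeR adjusted p = 4.94e-05) on the CPM scale and had -0.17 on the spike-in scale. For miR-29c-5p, 212 and 176 CPM in WT stood against 527 and 321 in R821E, a rise of 1.14 (SE 0.267, edgeR adjusted p = 0.00378) that turns to -0.15 on the spike-in scale. The guides kept their direction on both scales. The level of miR-29a-3p was 9213 and 10611 CPM in WT and 5438 and 5001 in R821E, and it fell by 0.92 (SE 0.131, edgeR adjusted p = 1.42e-04). For miR-29c-3p, 365 and 257 CPM in WT stood against 220.7 and 95.5 in R821E, and it fell by 0.92 (SE 0.326, edgeR adjusted p = 0.0315). The strand miR-29b-3p was at 6787 and 13078 CPM in WT and 6486 and 5591 in R821E, and its change of -0.72 was not called (SE 0.325, edgeR adjusted p = 0.0924).

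In CPM 3 of 7 strands rose and 2 fell, beside 47.9% of tested entries called, 23.8% higher and 24.1% lower. The risers were 5p strands and the others 3p strands, beside 28.7% of 5p entries called higher and 37.8% of 3p entries called lower. In all 7 the WT and R821E libraries did not overlap, which also held for 74.6% of tested entries. Single libraries decided calls of the rarer strands. Without R821E replicate 1 the change of miR-29c-5p was 0.72 (edgeR adjusted p = 0.0840), and with all libraries scaled to total counts it was 0.57 (edgeR adjusted p = 0.0821). That of miR-29c-3p was -0.63 without WT replicate 1 (edgeR adjusted p = 0.179) and -0.50 without R821E replicate 2 (edgeR adjusted p = 0.245), while miR-29b-3p was called at -1.10 without WT replicate 1 (edgeR adjusted p = 0.0155).

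**Figure D3:**
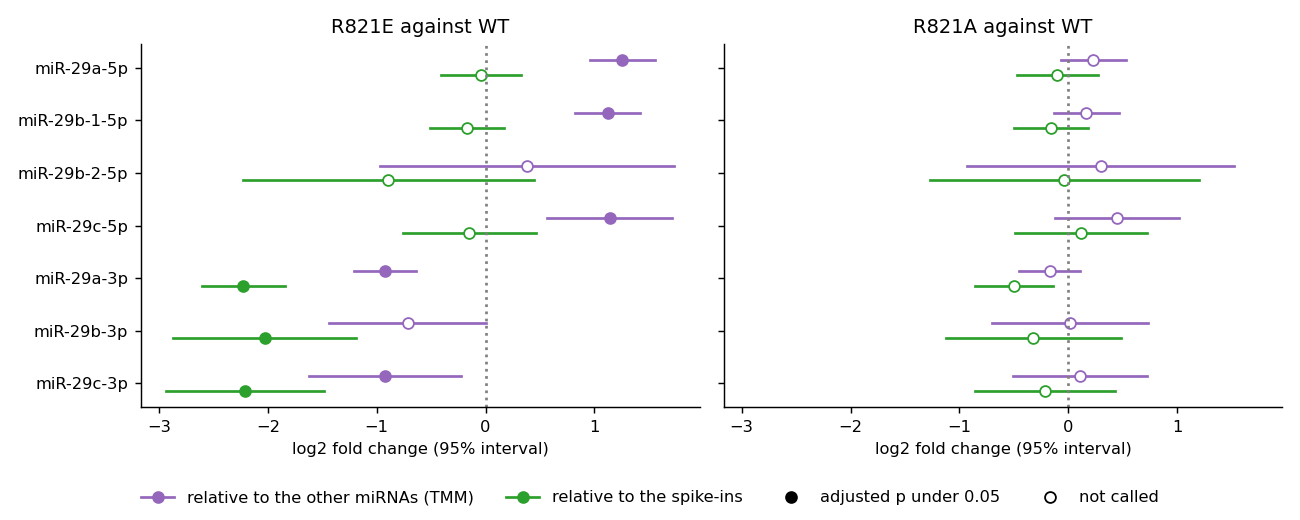
Log2 fold change against WT (x axis, with 95% intervals) of the 7 strands for R821E (left) and R821A (right), in purple relative to the other miRNAs and in green relative to the spike-ins; filled points have an adjusted p under 0.05. In R821E the 5p strands are positive in purple and below 0 in green, while the 3p strands are negative on both scales; in R821A no point is filled.

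The ratio of the arms within a library needs no scale. For miR-29a the 5p to 3p ratio was 0.511 and 0.520 in the WT libraries and 2.40 and 2.28 in R821E. The lead thus passed from the 3p to the 5p strand in both R821E libraries, where the 5p share was 70.6 and 69.5%, with exact (Clopper-Pearson) 95% intervals of 68.9 to 72.2% and 67.4 to 71.6%. The log2 ratio rose by 2.18 (SE 0.167, limma adjusted p = 4.39e-06). For miR-29c the ratio was 0.581 and 0.687 in WT and 2.39 and 3.36 in R821E. The 5p shares in R821E, 70.5 and 77.1%, have wide intervals of 61.6 to 78.4% and 62.7 to 88.0% that still lie above 50%. The log2 ratio rose by 2.13 (SE 0.272, limma adjusted p = 1.94e-04). The intervals hold counting error alone and treat each read as an independent molecule, which amplified reads need not be.

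Both hairpins were called, beside 56.5% of the 69 hairpins tested for their arm ratio, and 43.5% were called toward 5p. The median change of the 69 was 0.40. Ordered by their change toward 5p, miR-29a was at place 6 and miR-29c at place 7. In WT 23 of the 69 hairpins were led by the 3p strand, and 8 of these, both miR-29 hairpins included, were led by the 5p strand in R821E. Both calls held without each of the 4 libraries in turn. The arms of miR-29b can only be summed over its hairpins, which gave ratios of 0.487 and 0.206 in WT and 1.04 and 1.12 in R821E. These do not overlap, and the share of hairpins without overlap was not counted.

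**Figure D4:**
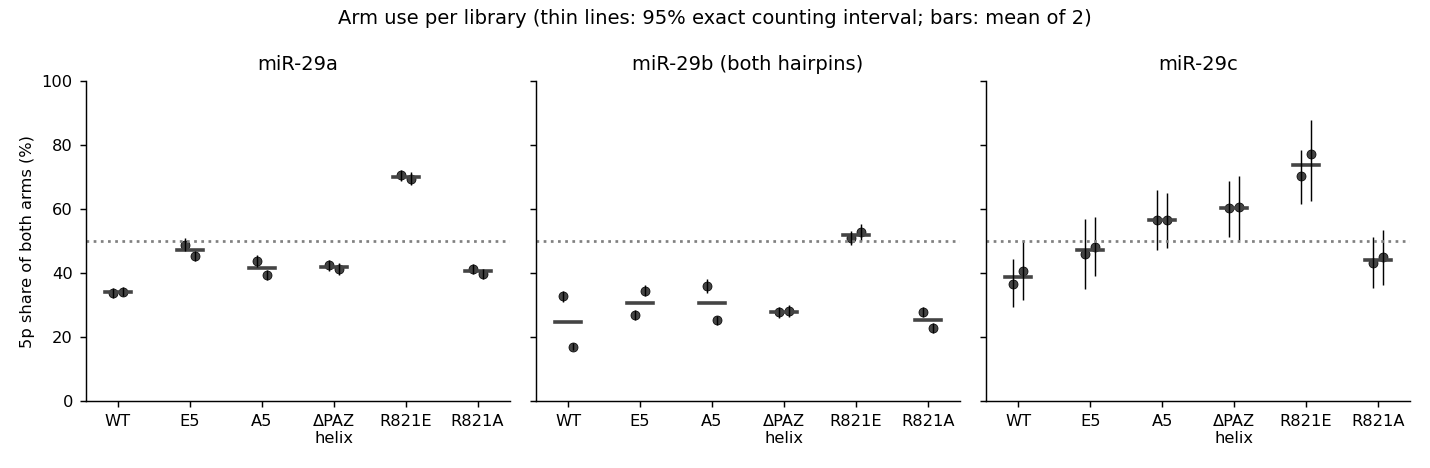
Share of the 5p strand among the counts of both arms (y axis, percent) for miR-29a, miR-29b summed over both hairpins, and miR-29c by DICER group (x axis); points are libraries, thin lines exact 95% counting intervals, bars the mean of 2, and the dotted line marks 50%. R821E lies above 50% in all 3 panels, and for miR-29c E5, A5, ΔPAZ helix and R821A all lie between WT and R821E.

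R821A carries alanine at the residue that is glutamate in R821E. In this group no strand was called on the CPM scale, where edgeR gave 0 of 7 at an unadjusted p under 0.05, DESeq2 called 0, and 3.21% of tested entries were called. The strand miR-29a-5p was at 5748 and 6260 CPM, a log2 change of 0.23 (edgeR adjusted p = 0.605) that is -0.10 on the spike-in scale. The strand miR-29a-3p was at 8126 and 9482 CPM, a log2 change of -0.17 (edgeR adjusted p = 0.711). Set against the spike-ins, miR-29a-3p had 159 and 214 counts per 1000, below both WT libraries. On that scale 47.9% of tested entries did not overlap WT. The change of miR-29a-3p, -0.50, was not called (edgeR adjusted p = 0.114). It passed the threshold without R821A replicate 2, at -0.73 (edgeR adjusted p = 0.0437). No strand was called on that scale, where 1 of 7 had an unadjusted p under 0.05 and 4.28% of tested entries were called.

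The direct comparison of R821E with R821A repeated the split by arm, and it shares the R821E libraries with the comparison above. On the CPM scale miR-29a-5p was 1.03 higher (SE 0.138, edgeR adjusted p = 1.78e-04) and miR-29b-1-5p 0.96 higher (SE 0.139, edgeR adjusted p = 3.05e-04), while on the spike-in scale they were at 0.06 and -0.01. The guide miR-29a-3p was lower by -0.75 (SE 0.131, edgeR adjusted p = 9.40e-04) on the CPM scale and by -1.73 (SE 0.173, edgeR adjusted p = 4.26e-06) on the spike-in scale. For miR-29b-3p the values were -0.73 (edgeR adjusted p = 0.0968) and -1.71 (edgeR adjusted p = 0.00312). The rare guide miR-29c-3p had -1.03 (edgeR adjusted p = 0.0231) and -1.99 (edgeR adjusted p = 2.52e-04). Its partner miR-29c-5p was 0.70 higher in CPM (edgeR adjusted p = 0.0474) and had -0.27 on the spike-in scale, and miR-29b-2-5p was at 0.09 in CPM (edgeR adjusted p = 0.911).

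In this comparison 3 strands were higher and 2 lower in CPM, beside 41.4% of tested entries called, 21.9% higher and 19.5% lower. By arm, 28.7% of 5p entries were called higher and 30.4% of 3p entries lower. Relative to the spike-ins 3 were lower, beside 49.2% called and 48.9% called lower. Of 3p entries 63.5% were called lower on that scale, and of 5p entries 43.7%. The calls of miR-29c in CPM rested on single libraries: without R821A replicate 1 miR-29c-5p had 0.57 (edgeR adjusted p = 0.212) and miR-29c-3p -1.11 (edgeR adjusted p = 0.0543), and without R821A replicate 2 they had 0.80 (edgeR adjusted p = 0.0837) and -0.98 (edgeR adjusted p = 0.0768). Scaled to total counts miR-29c-5p had 0.16 (edgeR adjusted p = 0.649). Without R821E replicate 1 miR-29c-5p had 0.28 (edgeR adjusted p = 0.507), and without R821E replicate 2 miR-29c-3p had -0.61 (edgeR adjusted p = 0.172).

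The arm ratios of R821A were 0.707 and 0.660 for miR-29a and 0.761 and 0.816 for miR-29c, so the 3p strand led in both libraries. Each was above both WT libraries, at 0.511 and 0.520 for miR-29a and 0.581 and 0.687 for miR-29c. Neither change from WT was called, at 0.41 for miR-29a (limma adjusted p = 0.288) and 0.32 for miR-29c (limma adjusted p = 0.744). Of the pair, miR-29a had an unadjusted p under 0.05, and 0% of hairpins were called. Between R821E and R821A the log2 ratio differed by 1.77 for miR-29a (SE 0.167, limma adjusted p = 3.46e-05) and by 1.82 for miR-29c (SE 0.272, limma adjusted p = 6.79e-04), beside 39.1% of hairpins called.

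In E5 the family's 3p strands kept their lead, and few strands were called. The strand miR-29b-1-5p was at 4093 and 4628 CPM, above both WT libraries, and rose by 0.56 (SE 0.139, edgeR adjusted p = 0.0264), while on the spike-in scale it was at -0.03. It was 1 strand of 7 called in CPM, beside 9.09% of tested entries called, 2.41% called higher and 45.7% not overlapping WT. Without WT replicate 2 its change was 0.39 (edgeR adjusted p = 0.169) and without E5 replicate 2 it was 0.45 (edgeR adjusted p = 0.185), and scaled to total counts in place of TMM it was 0.46 (edgeR adjusted p = 0.102). The strand miR-29a-5p, at 7145 and 6681 CPM, had 0.44 (edgeR adjusted p = 0.0671), turning to -0.16 on the spike-in scale. The guide miR-29a-3p was at 7455 and 8030 CPM, a change of -0.36 (edgeR adjusted p = 0.113) that was called lower when scaled to total counts (-0.45, edgeR adjusted p = 0.0466).

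In E5, A5 and ΔPAZ helix miR-29a-3p was the strand called relative to the spike-ins. It had 132.9 and 139 counts per 1000 spike-in counts in E5, below both WT libraries, beside 60.2% of tested entries not overlapping WT. It fell by 0.95 (SE 0.169, edgeR adjusted p = 0.00134). This was 1 of 7 strands called, beside 27.3% of tested entries, and the call held without each of the 4 libraries in turn. In A5 it had 161 and 174, and fell by 0.66 (SE 0.168, edgeR adjusted p = 0.0214), the 1 call of 7 beside 14.7% of tested entries. In ΔPAZ helix it had 174 and 156, and fell by 0.68 (SE 0.168, edgeR adjusted p = 0.0286), the 1 call beside 13.1%. The median over all entries on this scale was -0.56 in E5, -0.46 in A5 and -0.45 in ΔPAZ helix. Every comparison with WT uses the same 2 WT libraries, so these calls are not independent of each other. The WT libraries had 22.4 and 25.9 miRNA counts per spike-in count, the highest of the 12. They were also the least alike pair of replicates (chi-square per degree of freedom 25.6). The A5 call was lost without WT replicate 2 (-0.50, edgeR adjusted p = 0.103), A5 replicate 1 (-0.60, edgeR adjusted p = 0.198) or A5 replicate 2 (-0.72, edgeR adjusted p = 0.0979). The ΔPAZ helix call was lost without WT replicate 2 (-0.52, edgeR adjusted p = 0.0969), ΔPAZ helix replicate 1 (-0.76, edgeR adjusted p = 0.0884) or replicate 2 (-0.60, edgeR adjusted p = 0.251).

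In CPM no strand was called in A5 or in ΔPAZ helix, beside 0.267% of tested entries in each. There edgeR gave 1 and 2 strands at an unadjusted p under 0.05, and DESeq2 called 0 in both. Among the 7, miR-29c-5p had the largest CPM estimate in both. It was at 336 and 294 CPM in A5, above both WT libraries, with a log2 change of 0.69 (edgeR adjusted p = 0.261). In ΔPAZ helix it was at 357 and 312 CPM, also above both, with 0.78 (edgeR adjusted p = 0.232). Of tested entries, 38.2% in A5 and 41.4% in ΔPAZ helix did not overlap WT in CPM. The miR-29a strands had 0.28 (5p, edgeR adjusted p = 0.362) and -0.19 (3p, edgeR adjusted p = 0.544) in A5. In ΔPAZ helix they had 0.25 (5p, edgeR adjusted p = 0.490) and -0.23 (3p, edgeR adjusted p = 0.525). Set against the spike-ins in A5 and ΔPAZ helix, the estimates of miR-29a-5p were -0.19 and -0.20, and those of miR-29c-5p were 0.23 (edgeR adjusted p = 0.587) and 0.34 (edgeR adjusted p = 0.427).

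The arm ratio of miR-29a was above both WT libraries in each library of these groups, as it was in R821A and R821E. How many of the 69 hairpins stood apart from WT in this way was not counted. The miR-29a ratio was 0.958 and 0.832 in E5, 0.782 and 0.655 in A5, and 0.739 and 0.702 in ΔPAZ helix, and the 3p strand led in all. In E5 the log2 ratio rose by 0.79 (SE 0.167, limma adjusted p = 0.0221), 1 of the 2 miR-29 hairpins called, beside 4.35% of hairpins. That call was lost without WT replicate 2 (0.81, limma adjusted p = 0.0941), E5 replicate 1 (0.69, limma adjusted p = 0.200) or E5 replicate 2 (0.89, limma adjusted p = 0.0755). In A5 and ΔPAZ helix the changes were 0.47 (limma adjusted p = 0.282) and 0.48 (limma adjusted p = 0.323).

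For miR-29c the ratio was 1.31 and 1.30 in A5 and 1.52 and 1.54 in ΔPAZ helix, so the 5p strand led in these libraries, while in E5 it was 0.851 and 0.934. All of these lay above both WT values, as did those of R821A and R821E. The same 2 WT libraries serve every group, and the share of hairpins that stood apart from WT was again not counted. The exact 95% interval of the 5p share reached below 50% in both A5 libraries, from 47.3% and 47.8%, and stayed above it in ΔPAZ helix, from 51.4% and 50.3%. The log2 changes were 1.04 in A5 (SE 0.272, limma adjusted p = 0.202), 1.26 in ΔPAZ helix (SE 0.272, limma adjusted p = 0.0520) and 0.49 in E5 (SE 0.272, limma adjusted p = 0.318). None was called. In A5 and in ΔPAZ helix 0% of hairpins were called, and both miR-29 hairpins had an unadjusted p under 0.05. When only hairpins averaging 50 counts or more on each arm were tested, miR-29c was called in A5 (limma adjusted p = 0.0336) and in ΔPAZ helix (limma adjusted p = 0.00857). How many hairpins were tested and called at that minimum was not recorded.

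**Figure D5:**
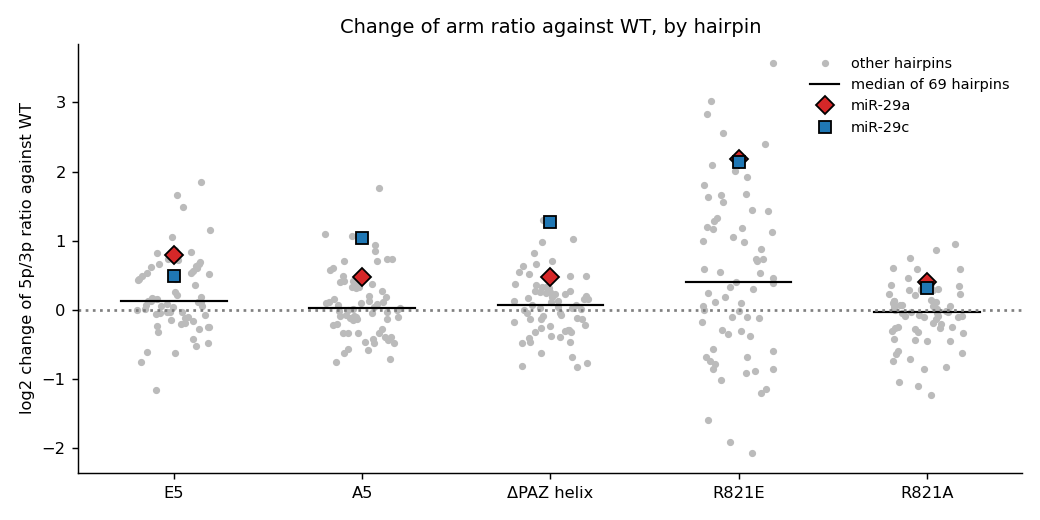
Change of the log2 5p to 3p ratio against WT (y axis) for the 69 tested hairpins in each mutant (x axis); grey points are other hairpins, bars the median, the diamond miR-29a and the square miR-29c. In R821E both miR-29 hairpins lie near 2.2, above the median of 0.40, and in R821A they lie at 0.41 and 0.32.

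E5 and A5 were also compared with each other. No strand was called, beside 0% of tested entries, and 1 of 7 had an unadjusted p under 0.05 in edgeR, while DESeq2 called 0. That strand was miR-29b-1-5p, 0.32 higher in E5 (edgeR adjusted p = 0.471). The arm ratio differed by 0.32 for miR-29a, with a 95% interval from -0.05 to 0.69 (limma adjusted p = 0.662). For miR-29c it differed by -0.55, with an interval from -1.15 to 0.05 (limma adjusted p = 0.662). Here too 0% of hairpins were called.

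The strand shared by MIR29B1 and MIR29B2 was the least even between replicates among the abundant members. The higher library exceeded the lower by 1.93-fold for miR-29b-3p in WT and by 1.75-fold in A5, against 1.15-fold and 1.03-fold for miR-29a-3p. The ratio of miR-29b-3p to miR-29a-3p was 0.737 and 1.23 in WT and 0.726 and 1.23 in A5, a spread as wide as the differences between groups. In R821E it was 1.19 and 1.12. Of the miR-29b 5p counts, miR-29b-2-5p supplied 0.591 to 2.64% over the 12 libraries, with 5 to 21 raw counts.

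Over the 12 libraries miR-29a-3p and miR-29a-5p ran opposite to each other in log2 CPM, with Pearson's r of -0.92, while miR-29a-5p and miR-29b-1-5p ran together at 0.92. These values describe 12 libraries that share scaling factors, and R821E sets much of the range. Among 244 other entries that averaged 100 CPM or more, the most like miR-29a-3p were miR-27b-3p (r = 0.96), miR-200a-3p (0.95) and miR-331-3p (0.95). The most like miR-29a-5p were miR-9-5p (0.97), miR-3613-5p (0.97) and miR-21-5p (0.97). The partners thus lie on the same arm as the strand they resemble. From WT to R821E miR-27b-3p went from 4949 to 2192 CPM and miR-9-5p from 494 to 1218 CPM.

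Other miRNAs whose guide lies on the 3p arm moved in the same direction as the miR-29 guides. Of 31 listed, 29 were tested, and in R821E 25 fell and none rose in CPM, with a median log2 change of -1.19 beside -0.10 over all entries. Of all tested entries 24.1% fell in CPM, and of the tested 3p entries 37.8% did. All 29 fell relative to the spike-ins, with a median of -2.48 beside -1.38, where 60.4% of all entries and 69.6% of 3p entries fell. Examples are miR-25-3p, of the miR-17~92 related clusters (-2.70), miR-107 (-1.95), miR-92b-3p (-1.83) and miR-200a-3p, which represses the ZEB factors (-1.63). In R821E against R821A 23 fell in CPM, with a median of -1.08 beside -0.07 over all entries, where 19.5% of all entries and 30.4% of 3p entries fell. The spike-in counterpart was 28, with a median of -2.03 beside -1.02, against 48.9% of all entries and 63.5% of 3p entries. In E5 10 fell in CPM, among them miR-25-3p (-1.02), with a median of -0.28 beside 0.03, but DESeq2 called 3. There 6.68% of all entries and 9.46% of 3p entries fell. In A5 1 fell in CPM, miR-221-3p (-0.77), and 1 in ΔPAZ helix, miR-25-3p (-0.92), which in each group was the single entry called of all 374. In R821A 2 fell in CPM, miR-25-3p (-0.76) and miR-101-3p (-0.95), beside 2.94% of all entries and 2.03% of 3p entries. Set against the spike-ins, more of these guides fell in each of the 4 groups. The count was 19 in E5 (median -0.86 beside -0.56 over all entries), where 27.3% of all entries and 31.8% of 3p entries fell. In A5 it was 16 (median -0.75 beside -0.46), against 14.7% and 18.9%. In ΔPAZ helix it was 17 (median -0.71 beside -0.45), against 13.1% and 17.6%. In R821A it was 3 (median -0.52 beside -0.35), against 4.28% and 2.70%. Between E5 and A5 edgeR called 0 of 29 in CPM, with 7 at an unadjusted p under 0.05, and DESeq2 called 0. The list was drawn up with earlier results of these data known and is no independent evidence of a direction.

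The 3p strands of miR-29 are known as repressors of DNA methyltransferases, so other miRNAs described as repressors of these enzymes or of the histone methyltransferase EZH2 were listed beside them. Of 9 listed, 8 were tested, 3 of which the list of 3p guides also holds. In R821E 6 fell and none rose in CPM, with a median of -1.14 beside -0.10 over all entries, of which 24.1% fell. The list mixes 3p and 5p strands, and 37.8% of 3p entries and 16.1% of 5p entries fell. Examples are miR-185-5p (-2.96), a 5p strand, miR-342-3p (-1.25), miR-101-3p (-1.21), known to repress EZH2, and miR-148a-3p (-1.19), known to repress DNMT1. In R821E against R821A 4 fell in CPM, with a median of -0.96 beside -0.07, against 19.5% of all entries and 30.4% of 3p entries. In R821A 2 fell, miR-185-5p (-1.42) and miR-101-3p (-0.95), with a list median of -0.15 beside -0.02, against 2.94%. In E5 1 fell, miR-185-5p (-1.62), with a list median of -0.03 beside 0.03, against 6.68%. In A5 and in ΔPAZ helix edgeR called 0 of 8 in CPM, with 2 at an unadjusted p under 0.05 in each, and DESeq2 called 0 and 1. Set against the spike-ins, all 8 fell in R821E, with a median of -2.40 beside -1.38, where 60.4% of all entries and 69.6% of 3p entries fell. All 8 also fell against R821A, with a median of -1.92 beside -1.02, where 48.9% of all entries and 63.5% of 3p entries fell. By the same measure 5 fell in E5 (median -0.63 beside -0.56 over all entries, 27.3% called lower), 3 in A5 (-0.63 beside -0.46, 14.7%), 3 in ΔPAZ helix (-0.61 beside -0.45, 13.1%) and 2 in R821A (-0.48 beside -0.35, 4.28%). Between E5 and A5 edgeR and DESeq2 called 0 in CPM, with 3 at an unadjusted p under 0.05. This list too was drawn up with earlier results of these data known.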

How the data were processed

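The authors deposited unnormalised counts for each miRNA and spike-in from AQ-seq of total RNA. Tools listed by the submitters' processing notes are bedtools, BWA and cutadapt, with the builds mm10 and hg38. No source used here gives their versions, the role of each build, the handling of reads that fit several entries or the step at which spike-ins were added.

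In R 4.3.3, edgeR 4.0.16 (robust quasi-likelihood test, TMM factors, filterByExpr by group) was fitted once over all 12 libraries with 6 residual degrees of freedom. The 374 tested entries held 99.6% of miRNA counts, and Benjamini-Hochberg adjustment over them used a threshold of 0.05. Spike-in entries stayed out of library sizes. On the spike-in scale their summed count was the library size. Arm ratios were tested with limma 3.58.1 (trend, robust) on log2 of (5p + 0.5)/(3p + 0.5) for 69 hairpins that averaged 20 counts or more on each arm. DESeq2 1.42.0 was an alternative. Both tests were tested on simulated data. Replicates were checked for duplicated libraries, and none was found (chi-square per degree of freedom 3.83 to 25.6).

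All 7 members are named. Other entries are the 3 most correlated with each miR-29a strand and up to 4 called examples per list, by absolute log2 fold change among entries that averaged 100 CPM or more. The members and lists were chosen with earlier results of these data known. Of the 1346 entries, 1179 matched a RefSeq sequence by name, all 7 members included.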

Additional observations from a re-analysis of the deposited data

How the results depend on the processing

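In R821E against WT and against R821A, both arm ratios were called under all alternatives run, and so were the 3 lower guides on the spike-in scale. For R821E against WT 5 strands were called in CPM, 3 on the spike-in scale and 4 to 5 without a library. Against R821A the counts were 5, 3, and 3 to 4 without a library. The E5 count of 1 became 2 with DESeq2 size factors, 0 with no filter, 0 with the 4 libraries alone, and 0 to 1 without a library. By total counts the E5 count stayed at 1 but was of another strand: miR-29b-1-5p missed the threshold (0.46, edgeR adjusted p = 0.102) and miR-29a-3p was called lower (-0.45, edgeR adjusted p = 0.0466). The counts of 5 for R821E against WT and against R821A also stayed by total counts, while miR-29c-5p lost its call (0.57 and 0.16) and miR-29b-3p gained one (-1.25 in each). The counts of 0 in A5 and ΔPAZ helix became 1 each on the spike-in scale. Of the spike-in scale counts, E5 went from 1 to 2 with TMM over the spike-ins and 1 to 2 without a library, A5 from 1 to 0 with 4 libraries and 0 to 2 without a library, ΔPAZ helix from 1 to 0 with either change and 0 to 1 without a library, and R821A from 0 to between 0 and 1 without a library. Of the arm ratio counts, E5 went from 1 to 0 when arms averaged 10 or more, 0 with 4 libraries and 0 to 1 without a library, A5 from 0 to 1 when arms averaged 50 or more, and ΔPAZ helix from 0 to 1 with that minimum or a pseudocount of 1. Apart from the spike-in scale, the share of all entries or hairpins called under these alternatives was not recorded. The cause was not tested.

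Among the log2 changes given in the report, those that changed sign belonged to 5p strands. Of 3p changes not given there, that of miR-29b-3p in E5 and in R821A and that of miR-29c-3p in R821A and in E5 against A5 also changed sign with the spike-in scale, none of them called on either scale. The estimates of miR-29a-5p relative to the spike-ins were -0.043 in R821E, -0.10 in R821A, -0.16 in E5, -0.19 in A5 and -0.20 in ΔPAZ helix. The strand miR-29b-1-5p had -0.029 in E5, -0.17 in R821E and -0.0099 against R821A, and miR-29c-5p had -0.15 in R821E and -0.27 against R821A. The scarce miR-29b-2-5p in R821E had -0.89 relative to the spike-ins and -0.17 by total counts. Against R821A it had -0.86 and -0.45, with -0.086 under no filter and a range from -0.050 to 0.18 without a library. Relative to the spike-ins and without a library, miR-29a-5p ranged from -0.20 to 0.13 in R821E and from -0.097 to 0.23 against R821A, and miR-29c-5p from -0.58 to 0.16 in R821E. Spike-in alternatives beyond the scale itself were chosen after seeing the data. A library left alone in its group was assumed to vary like the others.

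In most pairs of groups same-numbered libraries did not deviate together (correlations of -0.50 to 0.37 over 15 pairs of groups, 1 over 0.1). The extremes of both signs are not small over 374 entries, so replicate differences of some groups were related. With a replicate block, R821E against WT again had 5 strands called and against R821A 4, since miR-29c-5p missed the threshold (0.67, edgeR adjusted p = 0.0631). Depth limits miR-29b-2-5p, with 5 to 21 counts, and miR-29c-3p in R821E, with 36 and 11.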
